A study of Mus musculus with 20 samples.

Results

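The genes described here encode nuclear subunits of the respiratory chain and ATP synthase, together with a few close paralogues and associated proteins of the same gene names. They were taken by symbol from the mouse GENCODE annotation: Nduf followed by a, b, c, s or v and a number (complex I), Sdha to Sdhd (complex II), Uqcr (complex III), Cox4 to Cox8 (complex IV) and Atp5 (complex V). The selection held 294 introns of 73 genes, of the 68794 introns of 8397 genes in a deposited table of splicing counts. By complex, 35 of 37 annotated complex I genes were tabulated with 133 introns, 4 of 4 complex II genes with 29, 8 of 8 complex III genes with 36, 12 of 18 complex IV genes with 29 and 14 of 17 complex V genes with 67. Genes matching the names but not analysed here were Ndufb2, Ndufb3, Cox4i2, Cox6a2, Cox7a1, Cox7b2, Cox8b, Cox8c, Atp5d, Atp5f1 and Atp5j2.

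The samples were murine erythroleukemia (MEL) cells, a transformed line of red cell precursors that resumes part of erythroid maturation when treated with dimethyl sulfoxide (DMSO). Wild type cells were left uninduced or grown with 2% DMSO for 5 days, and each condition had 4 long-read samples, from 2 biological replicates run on 2 kinds of PacBio instrument. RNA came from chromatin and was depleted of polyadenylated and ribosomal RNA, so that transcripts still in the course of synthesis were read as long molecules. The table held 1 line per intron and condition and none per replicate, and which of these samples were added together is not stated, so replicate error could not be computed and every test compares 2 pools of libraries.

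The respiratory chain passes electrons from NADH and succinate to oxygen through complexes I to IV and pumps protons across the inner mitochondrial membrane, and complex V uses the proton gradient to make ATP. Most subunits are encoded in the nucleus, made in the cytosol and imported, and the few encoded by mitochondrial DNA have no introns in mouse. Red cell precursors need mitochondria for energy and for the synthesis of haem, and lose them at the end of maturation.

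The question the design addresses is how far introns are removed while RNA is still being made, and whether this differs after induction. Co-transcriptional splicing efficiency (coSE) is the fraction of reads at an intron that are spliced. NIC is the fraction of splicing intermediates, molecules whose upstream exon has been cut free but not ligated, among intermediates and spliced reads. A read counts at each intron it covers, so introns of 1 gene share molecules. The pools held 416379 uninduced and 279371 induced intron reads in all. The erythroid markers were higher in the induced pool: 11 of 11 were tabulated, their summed share was 0.192% of uninduced and 3.22% of induced reads, and Slc4a1 and Epb42 had 0 uninduced reads. Of 8 markers of other blood cells 3 were tabulated, with summed shares of 0.0485% and 0.0759%: Ptprc had 96 and 0 reads, Pf4 80 and 10, and Itga2b 26 and 202. The part of these cells in the results below was not tested.

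Splice sites of member introns are shown because the results turn on how far these introns were spliced. Each 5′ window holds the last 3 exon bases and the following intron bases, each 3′ window ends with the 3 bases of the next exon, and capitals mark the GT and AG at the intron ends. Positions are on mouse GRCm38 (mm10) and every intron listed lies between coding exons. The deposited tables give the sequences. The introns printed are deeply read and almost always spliced (Cox4i1, Cox6c, Uqcrh and Atp5c1 intron 2), poorly spliced (Ndufa3 and Ndufa7) or among the highest in intermediates (Atp5c1 intron 8, Atp5o, Ndufb5 and Atp5mpl uninduced; Cox7c among induced introns with at least 10 reads).
Cox4i1 intron 2, chr8:120669383-120672724, plus strand, 5′ splice site: atgGTgagc
Cox4i1 intron 2, 3′ splice site: gcctctccaatgtgttgtAGgga
Cox4i1 intron 3, chr8:120672893-120673220, plus strand, 5′ splice site: agtGTgggt
Cox4i1 intron 3, 3′ splice site: cttgcatctgtctcattcAGtgt
Cox6c intron 2, chr15:35935414-35937154, minus strand, 5′ splice site: aagGTatgt
Cox6c intron 2, 3′ splice site: cgggctatgctaccttttAGttt
Uqcrh intron 1, chr4:116070758-116074915, minus strand, 5′ splice site: gagGTaagg
Uqcrh intron 1, 3′ splice site: attttctttcccttttgtAGgaa
Atp5c1 intron 2, chr2:10068742-10069692, minus strand, 5′ splice site: ataGTaagt
Atp5c1 intron 2, 3′ splice site: acgacacttcaatattttAGtta
Ndufa3 intron 1, chr7:3617408-3617616, plus strand, 5′ splice site: ggaGTaagt
Ndufa3 intron 1, 3′ splice site: ctgtcttctcacctctctAGgaa
Ndufa7 intron 1, chr17:33824681-33825600, plus strand, 5′ splice site: gggGTgcgt
Ndufa7 intron 1, 3′ splice site: cttcttctctcctcccacAGcaa
Atp5c1 intron 8, chr2:10056807-10058995, minus strand, 5′ splice site: tctGTgagt
Atp5c1 intron 8, 3′ splice site: tttcctaatataataaccAGgga
Atp5o intron 3, chr16:91926983-91928898, minus strand, 5′ splice site: gggGTgagc
Atp5o intron 3, 3′ splice site: gattgtgtgtgtacttgcAGcaa
Ndufb5 intron 4, chr3:32747790-32748460, plus strand, 5′ splice site: aagGTttgc
Ndufb5 intron 4, 3′ splice site: ggaaacaccttttctctcAGcat
Atp5mpl intron 2, chr12:111962457-111963229, minus strand, 5′ splice site: ctgGTaggt
Atp5mpl intron 2, 3′ splice site: ctttcctttttctgttttAGata
Cox7c intron 1, chr13:86045870-86046600, minus strand, 5′ splice site: aagGTgagt
Cox7c intron 1, 3′ splice site: tgttctctctttctcaacAGaat

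Splice site windows were given for 111 member introns, and all 111 began with GT and ended with AG. The last exon base was G at 95 of them (85.6%), against 80.7% of the 6537 introns with windows. The deposited 5′ splice site score, which is higher for a sequence nearer the usual one, had a median of 8.69 in the members and 8.78 in all introns. The 3′ score had a median of 9.26 against 8.70. Member introns were 70 to 26413 bases long with a median of 1025.5, against 1226 for all introns, and 18 members (6.12%) were longer than 5000 bases against 13.8% of all introns.

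Before induction, introns of these genes were mostly removed while the RNA was on chromatin. Reads covered 289 of the 294 introns in the uninduced pool, 4826 reads in all, with a median of 13 reads per covered intron. Of 178 introns with at least 10 reads, in 52 genes, 74 (41.6%) had no unspliced read and 18 (10.1%) had a coSE below 0.8. The median coSE was 0.969, with a lower quartile of 0.890. Over all 9982 introns with at least 10 reads the median was 0.933, 37.0% had no unspliced read and 22.8% were below 0.8. Adding together the reads of introns with at least 10 gave 0.933 spliced for the members (95% Wilson interval 0.925 to 0.940) and 0.882 for all introns. No test was made of this difference, because introns are not replicates.

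Summed per gene, 34 of 54 member genes with at least 20 uninduced reads were at least 0.95 spliced (63.0%), against 25.8% of 3711 genes. Only 4 of the 54 were below 0.8 (7.41%, against 28.3% of all genes): Ndufa3, Ndufa4, Ndufs7 and Atp5g3. Ndufa4 was below 0.8 through its intron 1 alone, and without it had 57 of 66 reads spliced (0.864). The contrast was smaller after induction: 11 of 27 member genes with at least 20 induced reads were at least 0.95 spliced (40.7%, against 32.9%). Below 0.8 were 5 of the 27 (18.5%), against 22.1% of 2805 genes. Short introns were the less spliced ones in both the members and the table. The member median was 0.912 for 9 introns of up to 100 bases (all introns 0.818), 0.905 for 33 introns of 101 to 500 bases (0.846), 0.974 for 122 introns of 501 to 5000 bases (0.95) and 1 for 14 longer introns (1). In each class but the longest, the member median was the higher before induction. In the induced pool it was the lower: 0.749 over 4 introns of up to 100 bases (all introns 0.810), 0.812 over 12 of 101 to 500 bases (0.866) and 0.969 over 43 of 501 to 5000 bases (0.971). With reads of these introns added together, the uninduced order turned in the shortest class only, at 0.777 for members against 0.823 for all introns. That class includes Ndufa4 intron 1, with 0 of 30 reads spliced. Uninduced members stayed higher in the next classes, at 0.884 against 0.831 and 0.949 against 0.908. The induced order turned in all 3 classes, with members at 0.723, 0.831 and 0.910 against 0.721, 0.786 and 0.905. Across member introns coSE and length had a Spearman's rho of 0.23 over 178 uninduced introns, and the rho over all introns was 0.37. In the induced pool the order was the other way, 0.45 over 61 member introns and 0.38 over all introns. These are descriptions over introns that share reads. With the 5′ splice site score the rho was 0.07 over 110 uninduced and 0.22 over 24 induced member introns.

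**Figure D1:**
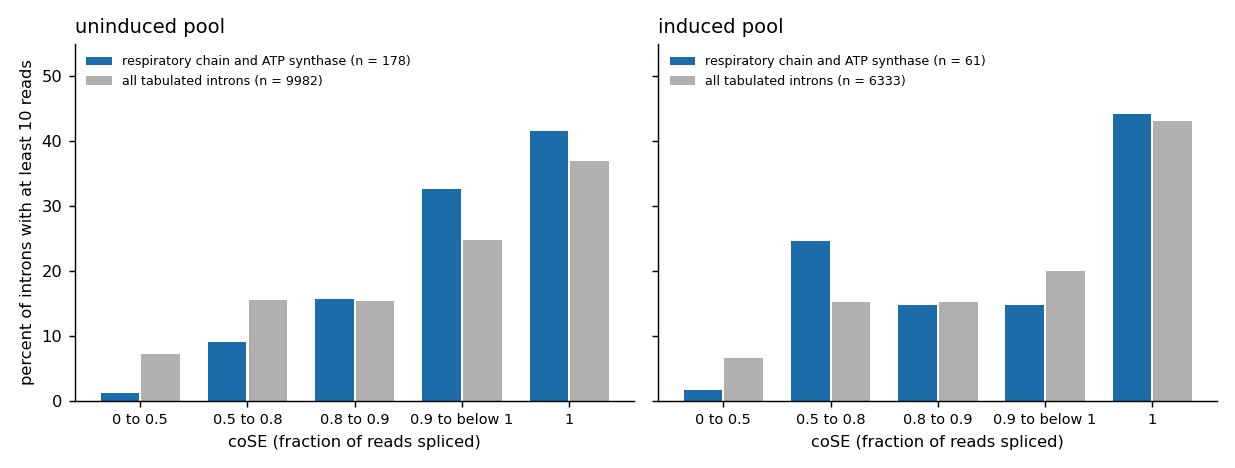
Percent of introns with at least 10 reads (y axis) in 5 classes of coSE (x axis, fraction of reads spliced), for the selected introns and all introns, in the uninduced and the induced pool. In the uninduced pool 1.12% of the 178 selected introns and 7.26% of all introns lie below 0.5; in the induced pool 24.6% of the 61 selected introns and 15.2% of all introns lie from 0.5 to below 0.8.

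The induced pool was thinner for these genes: 243 of the 294 introns had a read, 1707 reads in all, with a median of 5. Only 61 introns of 23 genes reached 10 reads, so the induced values describe a smaller and more deeply read set. Their median coSE was 0.941, with 27 at 1 (44.3%) and 16 below 0.8 (26.2%), against a median of 0.947, 43.1% and 21.8% of 6333 introns. With at least 5 reads the medians were 0.977 uninduced and 1 induced, so the order of the pools turned with the read minimum. Added together over the introns with at least 10 reads, 0.883 of member reads were spliced (0.862 to 0.902), against 0.859 for all introns of that depth.

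Comparing the pools at the same introns, none of 58 member introns with at least 10 reads in both was called by Fisher's exact test with Benjamini-Hochberg adjustment over all 4403 introns. Among those introns 1.61% were called at an adjusted p below 0.05. At an unadjusted p below 0.05 there were 2 member introns, both lower after induction, where 7.97% of all introns passed. A chi-square test also called 0 of the 58. With 10 to 82 reads per intron, small differences were not detectable at this depth. In direction, 28 members were lower in the induced pool, 18 higher and 12 equal (48.3%, 31.0% and 20.7%), against 34.8%, 42.7% and 22.5% of all introns tested. Summed over the 58 introns, coSE was 0.936 before and 0.885 after induction. The median difference was 0 and the mean difference -0.04. Over genes, 14 of 23 were lower, 7 higher and 2 equal, where differences of a single read count as lower or higher.

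**Figure D2:**
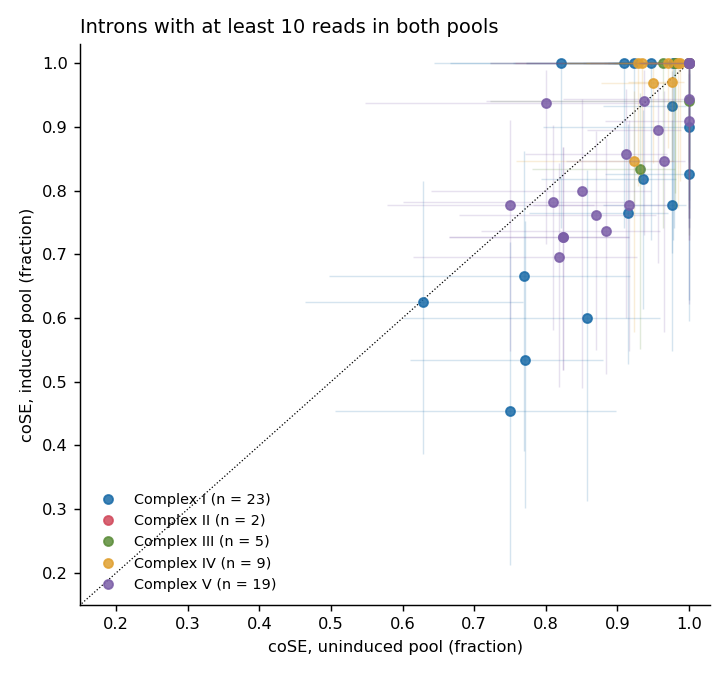
coSE in the uninduced pool (x axis) against the induced pool (y axis) for introns with at least 10 reads in both pools, with the 58 selected introns coloured by complex. Points below the diagonal are lower after induction; 28 selected introns lie below it and 18 above it.

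Complex I takes electrons from NADH, and its members ranged from fully spliced to mostly unspliced. Its 72 introns with at least 10 uninduced reads had a median coSE of 0.977, and 23 induced introns had a median of 1. At the 23 introns compared between pools, summed coSE was 0.921 before and 0.858 after induction, with 11 introns lower, 6 higher and 6 equal. Introns below 0.8 made up 13.9% of the uninduced and 30.4% of the induced ones. Ndufb8, an accessory subunit of the membrane arm, had 95 of 95 uninduced and 50 of 51 induced reads spliced over its 4 introns. Ndufa9, an accessory subunit at the joint of the matrix and membrane arms, had 96 of 101 uninduced and 73 of 76 induced reads spliced. These genes were nearly fully spliced in both pools.

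The lowest member with at least 10 reads was intron 1 of Ndufa4, an 88-base intron in the 5′ UTR at chr6:11907385-11907472, with 0 of 30 uninduced reads spliced. That count of 0 allows a spliced share of up to 10.0%. The intron belongs to 1 of the 2 annotated transcripts that span it. Ndufa4 was named as a complex I subunit and is now placed in complex IV. Its coding introns 2 and 3 had 23 of 28 and 20 of 22 uninduced reads spliced and 11 of 11 each in the induced pool, the largest and the third largest upward differences in coSE among the 58 introns tested, with adjusted p-values of 1 by Fisher's exact test. Intron 2 of Ndufa9, with 12 of 13 uninduced and 13 of 13 induced reads spliced, came next.

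Ndufs7, a core subunit that carries an iron-sulfur cluster, had 4 of 12 uninduced reads spliced at intron 3 (chr10:80253158-80253659), or 0.333 (0.138 to 0.609), and 9 of 14 at intron 1. In the induced pool those introns had only 2 and 6 reads. Intron 1 of Ndufa3, an accessory subunit, had 22 of 35 uninduced reads spliced, 0.629 (0.463 to 0.768), and 10 of 16 induced reads, 0.625 (0.386 to 0.815). Its sites read ggaGTaagt and ctgtcttctcacctctctAGgaa, with deposited scores of 8.57 and 12.51, so the incomplete splicing in both pools stood beside a 3′ score above the member median. Intron 1 is present in 3 of the 5 transcripts that span it.

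Among the 58 introns tested, the 6 largest downward differences after induction were all in complex I, and none passed the test. Intron 2 of Ndufv1, the subunit that binds NADH and flavin, is 73 bases long (chr19:4011273-4011345) and had 12 of 16 uninduced and 5 of 11 induced reads spliced. Intron 1 of Ndufa7 had 27 of 35 and 8 of 15, a coSE of 0.771 and 0.533 with an adjusted p of 0.87 by Fisher's exact test. Intron 2 of Ndufb10, 134 bases long, had 12 of 14 and 6 of 10, and its intron 1 had 10 of 13 and 8 of 12. Ndufv1 intron 2, Ndufa7 intron 1 and Ndufb10 intron 2 were the 3 lowest members of the induced pool with at least 10 reads.

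Intron 2 of Ndufb9, an accessory subunit of the membrane arm, gave the smallest p of the 58 introns tested. At chr15:58936461-58937351, 42 of 43 uninduced reads were spliced, 0.977 (0.879 to 0.996), and 14 of 18 induced reads, 0.778 (0.548 to 0.910). Fisher's exact test gave an unadjusted p of 0.0236 and an adjusted p of 0.448. Intron 3 of the same gene had 32 of 35 and 13 of 17 spliced. Introns 1 and 2 of Ndufb9 lie within another annotated gene on the same strand, Gm49356, whose reads cannot be told apart. Intron 1 of Ndufc1, a small membrane subunit, had 29 of 29 and 19 of 23 spliced, with an unadjusted p of 0.0327 and an adjusted p of 0.513 by the same test. Both genes thus showed lower induced values that the test over all introns did not call.

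Complex II, succinate dehydrogenase, is the link between the citric acid cycle and the respiratory chain. Its 17 introns with at least 10 uninduced reads had a median coSE of 1. Sdhb, the iron-sulfur subunit, had 57 of 57 uninduced and 59 of 60 induced reads spliced over 7 introns. The flavoprotein subunit Sdha had 200 of 207 uninduced reads spliced over 14 introns, and 37 of 44 induced reads. Within Sdha the unspliced reads of the uninduced pool lay at introns 1, 8, 13 and 14: intron 13, 2972 bases long, had 7 of 10 reads spliced. Those of the induced pool lay at introns 2, 5, 8 and 9. The induced reads of Sdha were too few at each intron for the test.

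In complex III, which passes electrons from ubiquinol to cytochrome c, none of 16 introns with at least 10 uninduced reads was below 0.8, and the lowest was 0.895. Uqcrh, the acidic hinge subunit, had 130 of 133 uninduced and 36 of 36 induced reads spliced. Uqcrb had 77 of 80 and 26 of 32, and its intron 3, with too few induced reads for the test, had 23 of 23 and 5 of 9. Uqcrc2, a core subunit, had 139 of 147 and 38 of 38, while the other core subunit Uqcrc1 had 71 of 82 and 84 of 96. Uqcrc1 thus lay below Uqcrc2 in both pools, at 0.866 against 0.946 uninduced, a difference that was not tested.

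Complex IV, cytochrome c oxidase, hands the electrons to oxygen. Counted without Ndufa4, its 17 introns with at least 10 uninduced reads lay between 0.923 and 1, with none below 0.8, and of 9 introns in both pools 6 were higher after induction, 2 lower and 1 equal. Cox4i1, the ubiquitous form of the regulatory subunit 4, held the member intron with most uninduced reads: introns 1 to 4 had 75 of 79, 80 of 82, 66 of 68 and 52 of 56 uninduced reads spliced, and in the induced pool 104 of 106 reads were spliced. Intron 3 of Cox4i1 had the 5′ site agtGTgggt, whose deposited score of 0.29 was far under the member median of 8.69, and still a coSE of 0.971 (0.899 to 0.992); this intron was chosen after its values were seen. The gene Gm20388 covers the introns of Cox4i1 on the same strand, so the reads of these genes cannot be told apart. Cox6c had 213 of 220 uninduced and 48 of 48 induced reads spliced over 3 introns. Intron 4 of Cox4i1 and intron 1 of Cox6c were among the 6 largest upward differences of the introns tested, of 0.07 and 0.06, and did not pass the test.

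Complex V had the lowest median of the complexes in both pools, 0.935 over 56 uninduced and 0.846 over 19 induced introns. The uninduced order turned with reads of these introns added together, at 0.919 for complex V and 0.915 for complex I. The induced order did not, at 0.836 and 0.858. Of its 19 introns with at least 10 reads in both pools, in 4 genes, 13 were lower after induction, 3 higher and 3 equal, with a median difference of -0.06, and none was called. Atp5a1, the alpha subunit of the catalytic head, had 186 of 221 uninduced and 137 of 168 induced reads spliced. Unspliced reads were present at 10 of its 11 introns before induction. Intron 10 was lowest, with 15 of 24 (0.625, 0.427 to 0.788), and had 6 of 6 induced reads spliced. Intron 5 had 18 of 22 and 16 of 23, and intron 1 had 12 of 15 and 15 of 16, the second largest upward difference of the 58 introns tested.

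Atp5b, the catalytic beta subunit, had values near those of Atp5a1, with 108 of 125 uninduced and 22 of 27 induced reads spliced. Atp5c1, the gamma subunit that turns inside the catalytic head, had 293 of 305 uninduced and 112 of 122 induced reads spliced over 9 introns, with 51 of 51 and 52 of 52 uninduced at introns 1 and 2. The 52 reads at intron 2 allow an unspliced share of up to 5.77%. Atp5o, part of the stalk that holds the head, had 148 of 150 and 19 of 19. Atp5k, a small membrane subunit, was less spliced in both pools, with 28 of 34, 28 of 34 and 24 of 32 uninduced reads at its 3 introns and 16 of 22, 16 of 22 and 14 of 18 induced. Atp5k and Atp5a1 lay below the other 2 genes of the complex tested, Atp5c1 and Atp5h, in both pools.

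**Figure D3:**
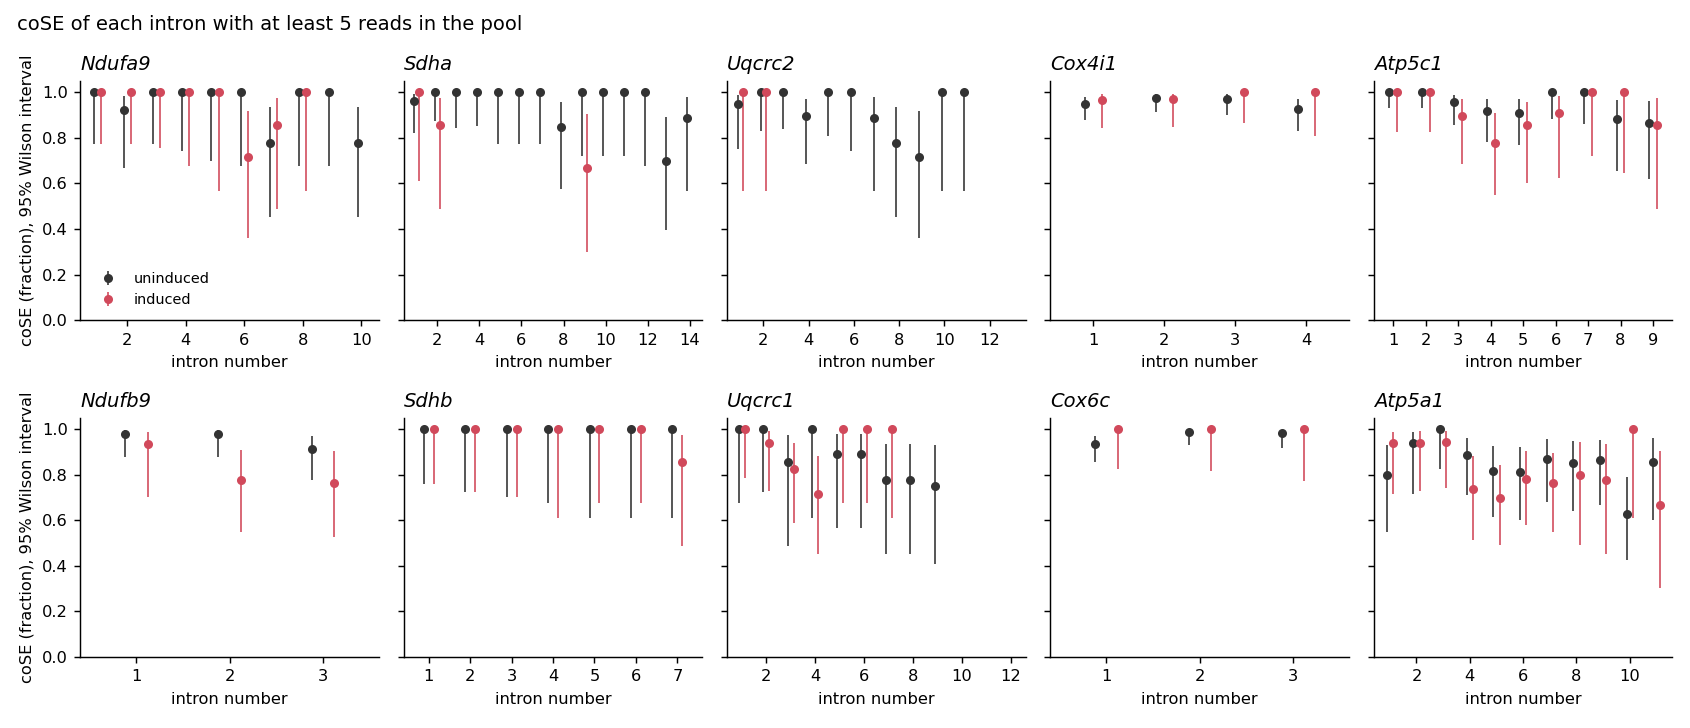
coSE (y axis, fraction of reads spliced) by intron number (x axis) for the 2 genes with most reads in each complex, uninduced in dark and induced in red, at introns with at least 5 reads in the pool. Points are pooled reads and bars are 95% Wilson intervals for counting error; Atp5a1 lies below 0.9 at most introns, and Sdhb is at 1 except for its last intron in the induced pool.

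By position in the gene, member introns differed little before induction: the median coSE was 0.967 over 47 first introns, 0.976 over 91 inner introns and 0.962 over 39 last introns. The same medians over all introns were 0.959, 0.929 and 0.923. In the induced pool the member medians were 1 over 20 first, 0.909 over 35 inner and 0.923 over 6 last introns. Those over all introns were 1, 0.941 and 0.909. Of 48 member genes with at least 10 reads at the first or the last intron, 40 had fewer uninduced reads at the last (83.3%), close to the 84.7% of 1499 genes in all. The median of last over first was 0.793 in the members and 0.364 over all genes. In the induced pool 19 of 20 had fewer at the last (95%, against 90% of all genes), with a median of 0.548 against 0.200. The genes with more uninduced reads at the last intron were Atp5b, Atp5g1, Cox6b1, Ndufa2 and Ndufb10.

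Splicing intermediates were rare at these introns. In the uninduced pool the NIC data held 110 member introns of 38 genes, with 38 intermediates among 2510 reads, a summed NIC of 1.51% (1.10% to 2.07%), or 0.907% over introns with at least 20 reads. Intermediates were present at 24 of the 110 (21.8%), against 36.2% of all 5568 introns, whose summed NIC was 2.71%. In the induced pool 24 introns of 10 genes had 5 intermediates among 277 reads, 1.81% (0.773% to 4.16%), against 4.35% over all introns. Over member introns with at least 20 reads the summed NIC was 0%, from Cox4i1 introns 1 and 2 alone. These had 21 and 22 reads, where a count of 0 allows up to 14.3% and 13.6%. Of 23 member introns in both pools none was called by Fisher's exact test, and none had an unadjusted p below 0.05, where 0.0981% and 1.67% of 2039 introns passed. A chi-square test called none either. Of the 23, 16 had no intermediate in either pool (69.6%, against 45.0% of all introns), 3 were higher (13% against 26.9%) and 4 lower (17.4% against 27.4%) after induction.

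Complex V held 22 of the 38 uninduced intermediates, with a summed NIC of 2.89% (1.91% to 4.33%). Complex I had 8 of 704 reads, complex IV 6 of 676, and complexes II and III had 1 intermediate each. The highest value was intron 8 of Atp5c1, where 4 of 14 reads were intermediates, 0.286 (0.117 to 0.546). Intron 6 of the same gene had 2 of 20. Intron 3 of Atp5o had 5 intermediates among 29 reads, 0.172 (0.0760 to 0.345), while 29 of 29 reads in the coSE counts were spliced there; the antisense gene Gm15976 overlaps this intron. Intron 2 of Atp5mpl, a small ATP synthase-associated protein, had 3 of 19.

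In complex I, intron 4 of Ndufb5 had 2 of 12 intermediates, and intron 1 of Ndufb11 had 2 of 15. The deposited 3′ scores of these 6 uninduced introns ranged from 2.60 (Ndufb5 intron 4) and 4.13 (Atp5c1 intron 8) through 7.64 (Atp5c1 intron 6), 7.71 (Atp5o) and 11.03 (Ndufb11) to 14.05 (Atp5mpl), on both sides of the member median of 9.26. In the induced pool intermediates were found at 2 of 13 member introns with at least 10 reads: intron 1 of Cox7c, a small subunit of complex IV, had 2 of 12 induced and 2 of 42 uninduced, and intron 6 of Atp5a1 had 1 of 18 induced. Under that minimum, intron 7 of Atp5a1 had 2 among 9 reads. The other 11, among them Cox4i1 introns 1 to 4, Cox6c intron 1 and Ndufc1 intron 1, had none. Each of these values rests on 1 to 5 intermediates.

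The pools also differed in the number of reads at these genes. Member genes held 1.16% of all uninduced intron reads and 0.611% of induced ones, a log2 ratio of -0.92. A read share here is a gene's intron reads over those of the pool, and fewer cells transcribing a gene cannot be told apart from less RNA per cell. Of 57 member genes whose reads in the pools together came to at least 20, 50 had a lower share after induction (background 53.7%), and 35 (61.4%) were at least 2-fold lower (background 27.5%). None was at least 2-fold higher (background 19.9%). Their median log2 ratio was -1.31, against -0.13 over 4713 genes. Leaving globin genes and Alas2 out of the pool totals gave -1.28. Among all 72 members with a read, 63 were lower (background 54.3%) and 43 at least 2-fold lower (background 34.5%). All 5 complexes lay on the lower side, with medians of -1.14 (I), -1.63 (II), -1.11 (III), -1.56 (IV) and -1.64 (V). There is 1 pool per condition, so this difference has no replicate check.

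**Figure D4:**
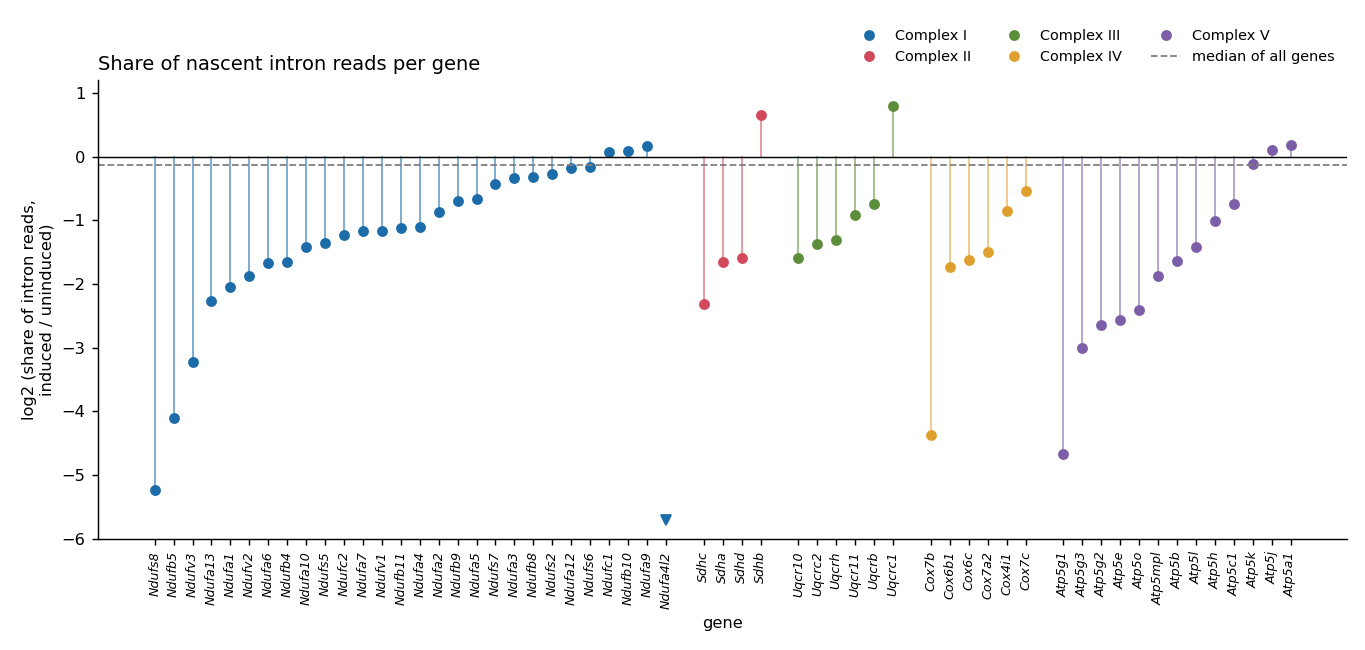
log2 ratio of each gene's share of intron reads, induced over uninduced (y axis), for the genes whose reads in the pools together came to at least 20, grouped by complex (x axis, genes). The dashed line is the median over all genes, -0.13; the triangle marks Ndufa4l2, which had 0 induced reads and is drawn off scale, and 7 genes lie above 0.

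Because introns of a gene share reads, the intron of each gene with most reads was also compared alone, with an exact 95% interval for counting error on the ratio. The interval lay below 0 for 22 of 72 member genes (30.6%), where 6.08% of all genes did so, and above 0 for 1, Uqcrc1 (background 6.87%). The background is all 8271 genes with a read, and an interval is wider at fewer reads. Members were deeper, with a median of 13 uninduced reads per covered intron against 3 over all introns. The shares are therefore not matched for depth. The 22 were spread over the complexes: 8 genes of complex I, 1 of II, 2 of III, 5 of IV and 6 of V.

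Within complex I, Ndufs8, a core iron-sulfur subunit, had 56 uninduced reads and 1 induced, a log2 ratio of -5.23; at its deepest intron there were 13 and 0 reads. Ndufb5, an accessory membrane subunit, had 102 and 4 reads, a log2 ratio of -4.10. Its deepest intron gave -3.90 (-9.26 to -1.28). Both genes were nearly without induced reads. Ndufa4l2, a paralogue of Ndufa4 known for its response to low oxygen, had 22 and 0 reads, a count of 0 that allows up to 3, and Ndufa9 lay on the other side with 101 and 76 reads, a log2 ratio of 0.17. The deepest intron of Ndufb9, with 121 and 50 reads in the gene, gave -0.63 (-1.51 to 0.19), an interval that includes 0.

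The succinate dehydrogenase genes lay on both sides of 0. Sdha had 207 and 44 reads, a log2 ratio of -1.66, and its deepest intron gave -1.32 (-2.77 to -0.09). The membrane anchors Sdhc and Sdhd had 37 and 5 and 45 and 10 reads. Sdhb had 57 and 60 reads, a log2 ratio of 0.65, with an interval at its deepest intron of -0.66 to 1.91. In complex III, Uqcrc1 had 82 and 96 reads, the highest log2 ratio of the members with at least 20 reads, 0.80, and its deepest intron, with 10 and 17 reads, gave 1.39 (0.18 to 2.68). Uqcrc2, the partner core subunit, had 147 and 38 reads, a log2 ratio of -1.38, and its deepest intron gave -1.30 (-3.08 to 0.17), an interval that includes 0. The summed ratios of the core subunits had opposite signs, and the difference between them was not tested.

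In complex IV all 6 genes with at least 20 reads were lower. Cox4i1 had 285 and 106 reads, a log2 ratio of -0.85, with -0.69 (-1.32 to -0.09) at its deepest intron. Cox6c had 220 and 48 reads, a log2 ratio of -1.62, and its deepest intron gave -1.59 (-2.44 to -0.82). Cox7b had 31 and 1. Cox5a and Cox5b had 6 and 16 uninduced reads and no induced read.

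ATP synthase subunits ranged widely. The 3 genes Atp5g1, Atp5g2 and Atp5g3 encode the same mature protein of the membrane ring, and had 76 and 2, 56 and 6, and 24 and 2 reads, log2 ratios of -4.67, -2.65 and -3.01. For Atp5g1 the deepest intron gave -4.08 (-9.43 to -1.47), and for Atp5g2 -1.18 (-3.24 to 0.49), an interval that includes 0. For Atp5g3 it gave -2.55 (-8.0 to 0.31), on 9 and 1 reads, which also includes 0. Atp5o had 150 and 19 reads and -2.55 (-4.50 to -1.07) at its deepest intron. By summed reads all 3 ring genes and Atp5o were over 4-fold lower. Atp5b had 125 and 27 reads, a log2 ratio of -1.64, while Atp5a1, its partner in the head, had 221 and 168 reads, a ratio of 0.18 that its deepest intron (-0.76 to 1.08) did not set apart from 0. Atp5c1 had 305 and 122 reads, a log2 ratio of -0.75, and its deepest intron gave -0.91 (-1.77 to -0.11).

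Ndufs4, tabulated by a short transcript, had no read in either pool. The genes with reads before induction and none after were Ndufa4l2, Ndufb6, Ndufs1, Uqcrfs1, Uqcrq, Cox5a, Cox5b and Atp5s, with 1 to 22 uninduced reads each. These 8 were 11.1% of the 72 members with a read, against 15.6% of all genes.

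Assembly factors, cytochrome c genes and other genes of the pathway outside the name rule gave a further 209 introns of 47 genes. Their median uninduced coSE was 0.952 over 39 introns, 11 of them below 0.8 (28.2%, against 22.8% of all introns). Of 9 introns tested in both pools none was called or had an unadjusted p below 0.05 by Fisher's exact test; 1 was higher, 2 lower and 6 equal. Of 25 of these genes with at least 20 reads, 17 (68.0%) had a lower read share after induction (background 53.7%) and 8 a higher one, with a median log2 ratio of -0.67.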

How the data were processed

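Tables pooled from long-read libraries of chromatin RNA were used; per the labels there are 4 uninduced and 4 induced MEL samples of that kind, and the other 12 of the 20 samples were not analysed here. The submitters' processing notes name cutadapt, minimap2, SAMtools, bedtools and the mm10 build, with no role or order. The deposited coSE table gives raw counts of spliced and unspliced reads per the file headers. The deposited NIC table gives counts of intermediates and spliced reads, NIC as a fraction by the authors, GC as a percent by the authors, and scores of both splice sites as deposited. How unspliced reads and intermediates were recognised, how strand and multiply mapping reads were treated, and which libraries were added together are not given in the sources used here. Many of these genes have processed pseudogenes elsewhere, and how reads matching both were placed was not tested.

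The members and lists were chosen with earlier results of these data known. Introns were placed on GENCODE mouse release 21 (68768 of 68794 fell on an annotated intron) and named by its symbols. coSE was computed for introns with at least 10 reads; pools were compared by two-sided Fisher's exact tests with Benjamini-Hochberg adjustment over all introns (threshold 0.05; scipy 1.17.1), a test also run on simulated data. Intervals are 95% Wilson or, for ratios of read shares, exact; a count of 0 allows 3 counts. Libraries were amplified, so intervals and tests cover counting error only. The spread between replicates was not measured. Introns were named by rule: the 6 largest upward and 6 largest downward differences and 6 lowest coSE values, the 6 highest NIC values, the 2 genes with most reads per complex, and the 4 highest and 4 lowest ratios of read share (at least 50 reads); other genes with values were chosen after these were seen. Alternatives were other read minimums, means, a chi-square test, constitutive introns, thinned reads and other denominators.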

Additional observations from a re-analysis of the deposited data

How the results depend on the processing

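No paired analysis was possible because the deposited tables hold 1 pooled line per intron and condition, and leaving out a replicate was not run for the same reason. The count of 0 members called for coSE held with at least 5 and at least 20 reads, a chi-square test, constitutive introns and thinned reads, with 0 to 3 members at an unadjusted p below 0.05. Other read minimums or tests leave the coSE difference of a single intron as it is; with uninduced reads thinned, the 17 named introns whose difference was not 0 and that still had enough reads kept its direction. The median coSE of 0.969 (uninduced) was 0.977 with at least 5 reads, 0.928 as a mean and 0.933 with reads added together. The induced median of 0.941 moved more: 1 with at least 5 reads, 0.818 with at least 20, 0.887 as a mean, 0.883 with reads added and 0.920 over gene means, so the order of the pools' medians depended on the read minimum. The cause was not tested. Summed NIC with at least 20 reads per intron was 0.907% uninduced and 0% induced, the induced value from Cox4i1 introns 1 and 2 alone. The median log2 read share of -1.31 was -1.18 at each gene's deepest intron and -1.14 with at least 50 reads. Leaving out introns overlapped by another gene on the same strand was added after seeing the data and gave medians of 0.967 and 0.941. Depth was low in the induced pool, with a median of 5 reads per covered member intron.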

Other observations

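Promoters of the member genes were searched for short motifs chosen after the data were seen. RefSeq windows on GRCm38.p6, from 250 bases before to 50 after the start, were matched by gene identifier, symbol or synonym for 60 of the 73 genes, 64 windows in all. Windows of all tabulated genes, given for comparison, were matched by symbol alone. The letters GCGC, any 1 base and then TGCGC, the core bound by nuclear respiratory factor 1 (NRF1), a known activator of respiratory chain genes, were present on either strand in 18 windows (28.1%), against 11.8% of 8712 windows of tabulated genes and 4.60% of all windows. The 17 genes were Atp5c1, Atp5g2, Atp5g3, Atp5h, Atp5k, Atp5o, Cox6a1, Ndufa11, Ndufa5, Ndufa6, Ndufa8, Ndufb4, Ndufs5, Ndufs6, Sdha, Sdhd and Uqcrc1. They include Uqcrc1, whose read share ratio was the highest of the members with at least 20 reads, and Atp5o, with a log2 ratio of -2.41. The letters AAGATGGC, as in sites of YY1, were in 8 windows (12.5%), against 5.28% and 2.75%. CCGGAAGT, as in ETS sites, was in 5 (7.81%), against 9.71% and 3.89%, and TATAAA in 6 (9.38%), against 6.05% and 13.6%. The member windows had a median GC content of 58.0%, the windows of tabulated genes 61.0%. A match of letters is a description of the window and not a measured binding site.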
